A study of Mus musculus with 2 samples.

Results

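The regions described here are stretches of open chromatin that lay over exons of protein-coding genes, far from any annotated start of transcription, and that were called at both ends of the embryonic mouse femur. They were chosen by measured values, namely by the presence of a peak in each of the lists deposited for the proximal and the distal femur. Overlapping peaks of both lists were merged, and a region was kept when it held a peak of each end, when its nearest edge was more than 3 kb from every start site in the GENCODE annotation of the mouse, and when at least 1 base fell in an exon of a protein-coding gene. Of 32388 merged regions 23635 (73.0%) held a peak of both ends, 10311 of these were more than 3 kb from a start site, and 501 met the whole rule. Each region was assigned to 1 gene, although 3 of the regions lay in more than 1. The assigned genes numbered 474, of which 449 held 1 such region, 23 held 2 and 2 held 3.

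The assay was ATAC-seq, in which a transposase cuts DNA where it is accessible and the cut fragments are sequenced. Both groups were chondrocytes from the growth zones of the femur of FVBNJ mice at stage E15.5, the proximal femur in one group and the distal femur in the other, and the labels name neither an allele nor an agent for either group. The ends were pooled over the animals of a litter, on average 8, and each library was made from 50000 cells. The tissue included all zones of the growth plate and the perichondrium, so the accessibility is a mean over these cells. There were 28257 proximal peaks, 711 bp wide in the median, and 27958 distal peaks, 691 bp wide in the median. Each list combined 2 biological replicates and held positions without a score, so no difference between the ends could be tested and the depth behind a single peak is not known. A peak of both ends lay within 1 kb of a start site of 5 of the 6 chondrocyte markers searched (Col2a1, Acan, Sox9, Col9a1 and Hapln1, with Matn1 as the exception), of 0 of 5 osteoblast markers, of 0 of 5 muscle markers and of 0 of 4 blood and vessel markers. On longer lists, also limited to autosomes, such a peak was present for 12 of 29 genes of the cartilage matrix. It was present for 8 of 17 bone matrix and osteoblast genes, 3 of 13 blood and vessel genes and 1 of 17 muscle genes. The short lists therefore do not measure the purity of the tissue.

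Most known enhancers lie in introns or between genes, but the DNA of a coding exon can also bind transcription factors while it encodes a protein. Such exonic enhancers have been described for genes that act in development, where an exon of one gene can act on a neighbouring gene. The last exon of a gene usually holds the end of the coding sequence and the 3′ UTR, the transcribed sequence after the stop codon. AP-1, the dimer of Fos and Jun proteins, Runx proteins and Sox proteins bind many distal enhancers of chondrocytes, and Ctcf, a zinc finger protein, binds at the borders of chromatin loops.

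Short stretches of the coding sequence inside these regions show what such DNA looks like. The windows below hold 30 bases each and are printed 5′ to 3′ on the strand of the gene, with the matched letters in capitals. They come from regions with many coding bases, from genes of the growth plate or the blood, or from the 1 region whose coding sequence held a match to Ctcf. Coordinates are on mm10 (GRCm38), and the letters are those of the RefSeq assembly, which is from another strain than the mice used.
Crybg3, chr16:59559790-59559819, minus strand, AP-1: tgttggagagccTGACTCAcaaacggagag
Sox5, chr6:143844805-143844834, minus strand, AP-1: cactggagagccTGACTCAgcagttggcag
Sox5, chr6:143844755-143844784, minus strand, Tead: aaatttagccatGGAATGatggatttcaat
Bmpr1b, chr3:141857448-141857477, minus strand, E-box: cacggaggaagcCAGCTGgttccgagagac
Bmpr1b, chr3:141863044-141863073, minus strand, Tead: ggacgagacataCATTCCtcctggagagtc
Ptgdr2, chr19:10940834-10940863, plus strand, Sox: gaggacaggccgCTTTGTgcgcctggtggc
Apba1, chr19:23893065-23893094, plus strand, Runx: gcggcttccacAACCACAcggacacggccg
Gdf6, chr4:9859802-9859831, plus strand, E-box: gagatgcatgagCAGCTGggctctgcagag
Tal1, chr4:115063476-115063505, plus strand, E-box: ggccgcatggtgCAGCTGagcccgcccgcg
Zfp697, chr3:98427859-98427888, plus strand, E-box: cggcaagagcttCAGCTGgcgcgccgacct
Zfp697, chr3:98428150-98428179, plus strand, E-box: cggcaagcgcttCAGCTGgcgctcggacct
Tchh, chr3:93446588-93446617, plus strand, E-box: ctggaggaagagCAGCTGaggcgccaggaa
Dglucy, chr12:100841399-100841428, plus strand, Ctcf: gcttctgctGCCCTCTGGTGGtcacaatga

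In Crybg3 the AP-1 letters lay 3 bp from the centre of the region, and in Dglucy, which encodes an enzyme of D-glutamate metabolism, the Ctcf letters did too. In Ptgdr2, which encodes a receptor for prostaglandin D2, the Sox letters lay 17 bp from the centre. The AP-1 letters in Sox5 lay 110 bp from the centre. Letters of the other printed windows lay from 38 bp (Gdf6) to 393 bp (Tchh) from the centre. The windows in Zfp697 were near copies of each other, and Zfp697 encodes a protein with repeated zinc fingers. The window in Tchh, which encodes trichohyalin, a repetitive protein of the hair follicle, was found unchanged at 3 places of the same exon, the others starting at 93446870 and 93447116. How reads from repeated sequence were assigned is not given in the sources used here.

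Of the 501 regions, 359 held coding bases, which is 71.7% with a 95% Wilson interval from 67.6% to 75.4%. A further 97 (19.4%, interval 16.1% to 23.0%) held 3′ UTR bases and no coding base. The remainder were 5 regions over the 5′ UTR and 40 over exons of noncoding transcripts of coding genes. All intervals given here cover counting error only. Of the coding regions 76 also held 3′ UTR bases. The median width was 712 bp for the coding regions and 636 bp for the 3′ UTR regions, against 666 bp in introns, 676 bp between genes and 984 bp at promoters, meaning shared regions within 1 kb of a start site. Closest to the limit of the rule were, on the inner side, regions at Ptgdr2 (3023 bp from a start site), Trio (3050 bp) and Dtna (3055 bp), and on the outer side regions at Itga10 (2998 bp), Nemp2 (2980 bp) and Thsd7b (2978 bp).

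Coding regions were for the most part not made of coding sequence. A coding region held a median of 133 coding bases (quartiles 87 and 201, range 5 to 1756), and over all of them 27.7% of the bases were coding. The centre lay in an exon in 155 of the 359 (43.2%, interval 38.2% to 48.3%), and 29 lay wholly in exons. In the 3′ UTR regions the median was 589 bases, the centre lay in an exon in 84 of 97 (86.6%, interval 78.4% to 92.0%), and 75 lay wholly in exons. In the transcript with the longest coding sequence 320 coding regions touched 1 exon, 30 touched more and 9 touched none. In the 226 coding regions without a last exon for which that transcript had an exon, the exon was short, with a median length of 131.5 bp, and in 169 of them the region held at least as many exonic bases as the exon is long. In the 124 coding regions with a last exon the median exon length was 805.5 bp, and 40 held as many. In the plot of exon sequence around the centre, coding bases in regions without a last exon were most frequent at 70 bp and 60 bp before the centre in the direction of the gene (69 of 233 regions, 29.6%) and least frequent within 100 bp after it at 80 bp (32 regions, 13.7%).

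**Figure D1:**
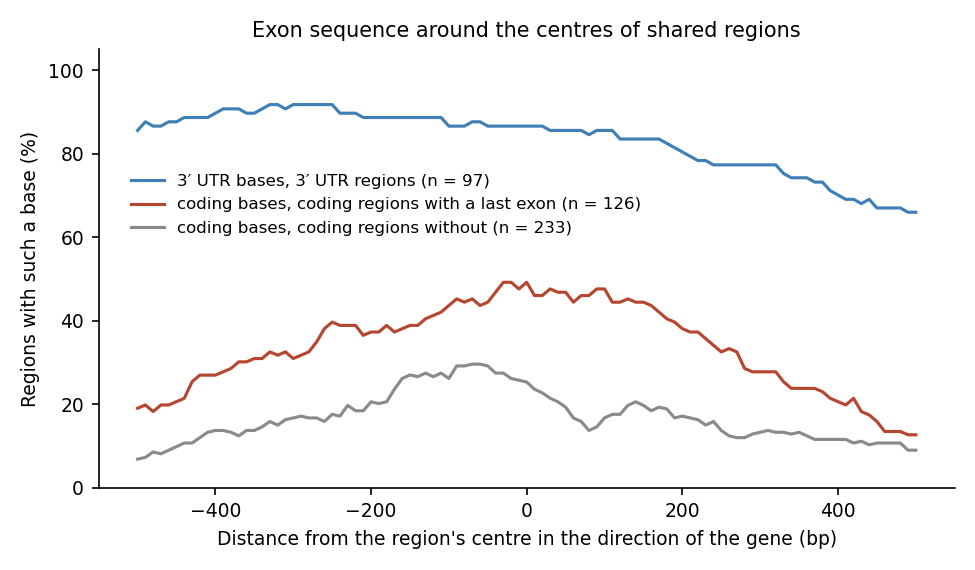
Share of regions (y axis, in %) that had a coding base or a 3′ UTR base at each distance from the centre of the region (x axis, in bp, negative values before the centre in the direction of the gene). Lines stand for 97 regions over the 3′ UTR, 126 coding regions with a last exon and 233 coding regions without. At the centre the shares were 86.6%, 49.2% and 25.3%.

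A last exon of any transcript was touched by 253 of the 501 regions (50.5%, interval 46.1% to 54.9%), by 126 of the 359 coding regions (35.1%) and by 94 of the 97 3′ UTR regions (96.9%). Counted only in the transcript with the longest coding sequence, the number was 168 (33.5%, interval 29.5% to 37.8%), so the share depends on which transcripts are counted. Last exons are long, and they made up 70.6% of all exonic bases more than 3 kb from start sites and 76.4% of the exonic bases inside shared regions. Within coding sequence the difference was larger, with last exons making up 31.3% of all coding bases beyond 3 kb and 51.9% of those inside shared regions.

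To set the counts against the amount of sequence, the share of bases inside shared regions was computed for each class beyond 3 kb. It was 0.422% of coding bases, 0.321% of 3′ UTR bases, 0.381% of intronic bases and 0.320% of intergenic bases. Coding sequence was not uniform: shared regions covered 0.699% of the coding bases of last exons, 2.18 times the intergenic value, and 0.296% of the coding bases of other exons, 0.922 times the intergenic value. By the length of the coding piece of an exon, the share was 0.283% for pieces up to 100 bp, 0.348% from 101 to 150 bp, 0.300% from 151 to 200 bp, 0.438% from 201 to 500 bp, 1.02% from 501 to 1000 bp and 0.387% above 1000 bp. The value for 501 to 1000 bp rested on 25 of 2154 pieces and that above 1000 bp on 14 of 1262. Pieces of all lengths came from the transcript with the longest coding sequence and lay wholly beyond 3 kb. Their shares thus rest on another set of bases than those of coding sequence above. When the regions rich in CpG described next were left out, a choice made after the data had been seen, the share fell to 0.311% in the coding sequence of last exons and to 0.247% in that of other exons. That of all coding sequence was then 0.267%. Such regions were left out of exons only, and the 40 intron and 212 intergenic regions rich in CpG stayed in, so these values cannot be set against the intronic and intergenic ones.

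**Figure D2:**
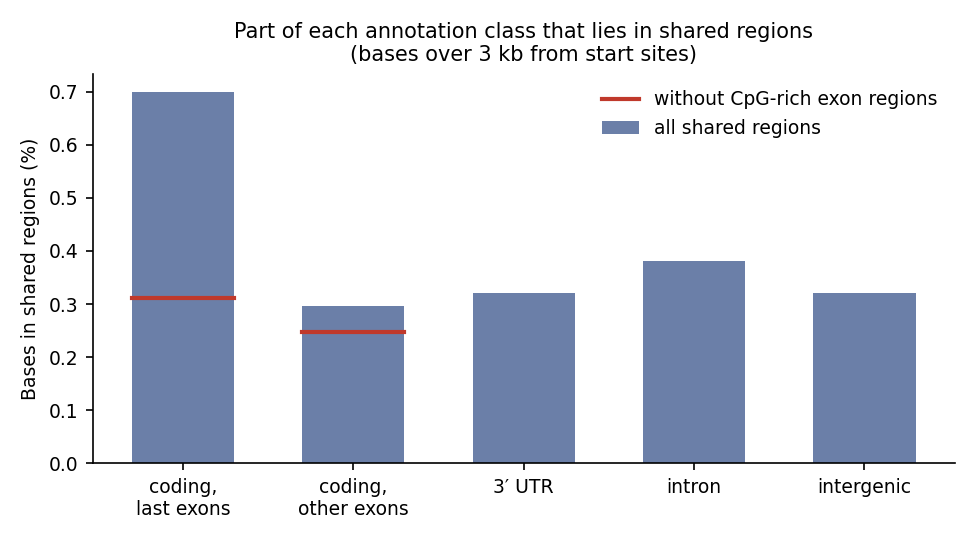
Share of the bases of each annotation class that lay in shared regions (bars, in %, bases more than 3 kb from start sites). The bar for coding bases of last exons stands at 0.699%, and the red line at 0.311% gives it without CpG-rich exon regions. The bars of the other 4 classes stand between 0.296% and 0.381%.

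CpG dinucleotides are depleted from most of the mouse genome by methylation and remain frequent in CpG islands, many of which are promoters. A region was counted as rich in CpG when it was at least 200 bp wide, had a GC content above 50% and had more than 0.6 of the CpG dinucleotides that its C and G content would give. This held for 50 of the 359 coding regions (13.9%, interval 10.7% to 17.9%), for 2 of the 97 3′ UTR regions (2.06%), for 1.07% of the 3741 shared intron regions (interval 0.786% to 1.45%), for 3.96% of the 5354 shared intergenic regions (interval 3.47% to 4.52%) and for 72.1% of the shared promoter regions. Among coding regions it held for 37 of the 126 with a last exon (29.4%, interval 22.1% to 37.8%) and for 13 of the 233 without (5.58%, interval 3.29% to 9.31%), and these intervals did not overlap. The median GC content of the central 200 bp was 56.8% with a last exon and 50.5% without, against 48.5% in introns and between genes.

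Coding sequence in general had a similar composition in last and other exons. Over all coding bases beyond 3 kb the ratio of observed to expected CpG was 0.401 in last exons and 0.393 in other exons, and GC content was 50.6% and 50.2%. Over the coding bases inside shared regions the ratio was 0.751 in last exons and 0.575 in other exons, and GC content was 62.1% and 56.1%. In the 3′ UTR the ratio was 0.226 over all bases and 0.324 inside shared regions, and in introns 0.185 and 0.256, so bases inside shared regions were richer in CpG in each of the 4 classes.

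**Figure D3:**
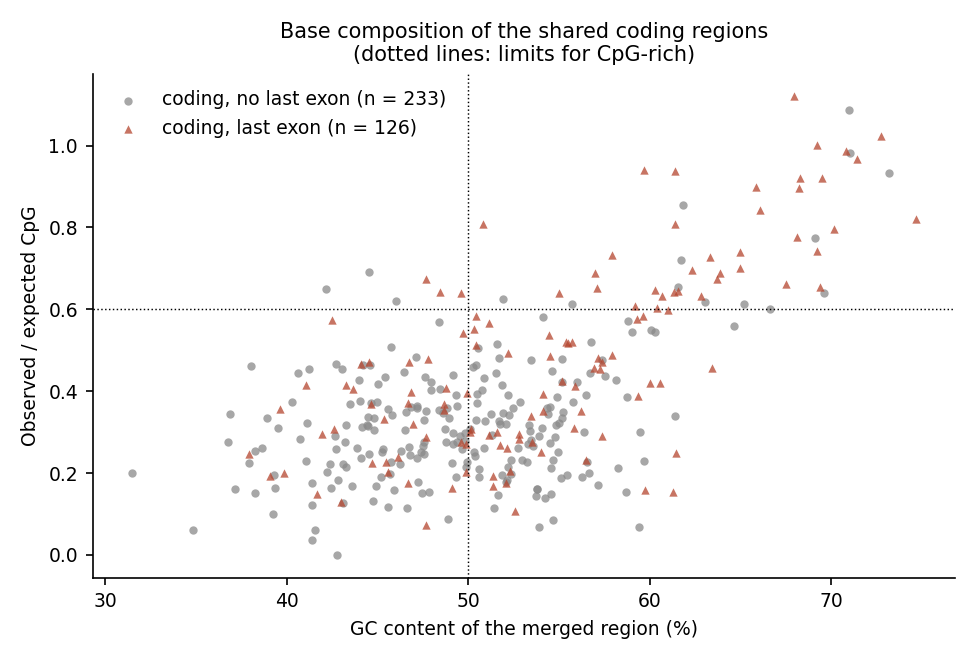
GC content (x axis, in %) and the ratio of observed to expected CpG (y axis) of each of the 359 coding regions, with triangles for the 126 that touch a last exon and circles for the 233 that do not. Dotted lines mark 50% and 0.6, and 37 triangles and 13 circles meet all limits for CpG-rich regions.

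The 10 regions with the most coding bases show this directly. Of these, 9 lay in Tchh (1756 coding bases), Ptgdr2 (1087), Zfp697 (1043), C1qtnf4 (981), C18orf63 (976), Prdm13 (966), Crybg3 (927), Gdf6 (877) and Apba1 (872). Among these 9 all but Crybg3 and Apba1 touched a last exon, and all but C18orf63 and Crybg3 were rich in CpG. Crybg3, the 1 region of the 10 with AP-1 letters in its central 200 bp, had a CpG ratio of 0.435 and a GC content of 47.6%.

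The widths of the proximal and distal peaks were close in some of these regions and not in others. In Tchh the proximal peak was 1683 bp wide and the distal peak 1701 bp. In Prdm13, which encodes a transcription factor of the nervous system, they were 966 bp and 757 bp. In Gdf6, which encodes a ligand of the bone morphogenetic protein family that acts in joint formation, they were 888 bp and 829 bp. In Apba1, which encodes an adaptor protein of neurons, they were 986 bp and 698 bp, with the right borders 23 bp apart and the left borders 311 bp apart. A peak of both ends at the own promoter, within 1 kb of a start site of the same gene, was present for Zfp697, Crybg3, Gdf6 and Apba1 and for none of the other 5 genes named.

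The central 30 bases of 6 of these regions, all of them coding, are printed with each CpG in capitals to show the density behind the ratios. The first 5 are from regions rich in CpG and the last is not.
Prdm13, chr4:21679438-21679467, minus strand: gggCGgctgCGcagagCGacccctacCGgg
C1qtnf4, chr2:90889971-90890000, plus strand: acCGgcCGttggccttCGacacCGagctgg
Apba1, chr19:23893159-23893188, plus strand: tgagagCGcctaCGcCGtgcagtacCGgcc
Gdf6, chr4:9859841-9859870, plus strand: gcCGaggggtcatggccagCGcCGtCGggc
Ptgdr2, chr19:10940818-10940847, plus strand: accacCGtggtCGccagaggacaggcCGct
Crybg3, chr16:59559787-59559816, minus strand: tggagagcctgactcacaaaCGgagagtgt

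The windows of Prdm13, C1qtnf4, Apba1 and Gdf6 held 4 CpG each. The window of Ptgdr2 held 3 and that of Crybg3 held 1. Over the whole region the ratio of observed to expected CpG was 1.09 in Apba1, 1.00 in C1qtnf4, 0.821 in Prdm13, 0.741 in Gdf6 and 0.647 in Ptgdr2.

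Promoters of the genes with a CpG-rich coding region were examined next. A peak of both ends at the own promoter was present for 22 of these 49 genes (44.9%, interval 31.9% to 58.7%) and for 198 of the 297 genes of other coding regions (66.7%, interval 61.1% to 71.8%), with no overlap between the intervals. The genes also differed in length, with a median span of 18829 bp against 91201 bp. Among genes named after their values had been seen, Lhx2, Runx1 and Hist1h2be had such a promoter peak, and Tbr1, Dmrt3, Pomc and Klhl31 had none. Over all genes of shared exon regions the share was 328 of 474 (69.2%, interval 64.9% to 73.2%), and it was 81.1% for genes of 3′ UTR regions (interval 72.0% to 87.7%), 76.3% for genes around shared intron regions and 59.9% for all genes with an exonic base beyond 3 kb.

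The 10 regions with the most 3′ UTR bases were of another kind. They lay in Tspan5 (1324 bases), Clec9a (1099), H6pd (1072), Sv2c (1037), Bloc1s5 (1027), Il17ra (993), Zbtb7b (984), Synrg (977), H13 (976) and Baalc (966). Each was wholly within the 3′ UTR of a last exon, and none was rich in CpG. In Tspan5, which encodes a tetraspanin of the cell membrane, the proximal peak was 1113 bp wide and the distal peak 718 bp. In Clec9a, which encodes a receptor of dendritic cells, the peaks were 1099 bp and 1076 bp wide, and the CpG ratio was 0.0918. In H6pd, which encodes an enzyme of the endoplasmic reticulum, they were 1012 bp and 993 bp. All of these genes except Clec9a had a peak of both ends at the own promoter. An annotated transcript end lay inside 27 of the 97 3′ UTR regions (27.8%) and inside 49 of the 359 coding regions (13.6%).

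Of the 5 widest regions 4 lay in Fam13c (1766 bp), Tchh (1756 bp), Pura (1683 bp) and Fhad1 (1433 bp). In Fam13c 148 of the bases were coding, and the proximal peak covered all 1766 bp while the distal peak was 945 bp wide. In Fhad1 108 were coding and the peaks, 1412 bp and 1366 bp wide, were more alike.

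Genes of the growth plate were examined as lists, which were drawn up with earlier results of these data known. Of all 15864 genes with an exonic base beyond 3 kb, 474 (2.99%) held a shared exon region. Of 26 such genes of the cartilage matrix 3 did, Col11a1, Col27a1 and Matn3. Of 27 regulators of chondrocytes 4 did, Sox5, Sox6, Runx1 and Zbtb20. Of 34 genes of growth plate signalling 2 did, Bmpr1b and Igf2r, and of 16 genes of bone and 9 genes of AP-1 and the immediate early response none did. Genes of other tissues were also present, with Ttn and Ryr1 of 11 muscle genes, Tal1 and Flt1 of 11 blood and vessel genes, and 4 of 19 genes for large proteins, Dst, Syne1 and Nav2 among them. Gene length differs between these lists and was not taken into account.

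In the cartilage matrix genes the exon was a small part of each region. Col11a1, which encodes a chain of the fibrils of cartilage, had a region at chr3:114099117-114099995 around exon 11 of 67 (exons are counted in the transcript with the longest coding sequence) with 64 coding bases, a proximal peak of 868 bp and a distal peak of 657 bp. Matn3, which encodes a matrilin of the growth plate, had one at chr12:8961042-8962160 around exon 5 of 8 with 126 coding bases, and the peaks were 1119 bp and 848 bp wide. Col27a1, which encodes a collagen of the growth plate, had one at chr4:63323347-63323898 around exon 50 of 61 with 54 coding bases, and the peaks were 510 bp and 471 bp wide. The central 200 bp of the region in Col27a1 held matches to AP-1, Sox and E-box letters, and those of the region in Matn3 held matches to Sox and E-box letters.

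Sox5 and Sox6, which encode partners of Sox9 in cartilage, held 1 such region each. The region in Sox5, at chr6:143844330-143845088, lay around exon 12 of 15 with 109 coding bases, had 515 bases in an exon that is the last of another transcript, and its peaks were 722 bp and 719 bp wide. That in Sox6, at chr7:115473941-115474515, lay wholly in 3′ UTR annotated for another transcript than the one with the longest coding sequence, held AP-1 and Tead letters in its central 200 bp, and its peaks were 560 bp and 575 bp wide. In Runx1, which encodes a transcription factor of blood and cartilage, the region at chr16:92605533-92606428 lay in the last exon, with 470 coding bases and a CpG ratio of 0.663. In Zbtb20, which encodes a transcription factor of hypertrophic chondrocytes among other cells, the region at chr16:43458441-43459464 was of the 5′ UTR class. Of its 1024 bases 95 were exonic, and its centre lay outside an exon.

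Bmpr1b, which encodes a receptor for bone morphogenetic proteins in cartilage, held regions over neighbouring coding exons. The one over exon 7 of 11, at chr3:141857099-141857619, contained all 193 coding bases of the exon and had AP-1 letters in its central 200 bp, and its peaks were 521 bp and 447 bp wide. The other, over exon 6 at chr3:141862709-141863196, contained all 139 coding bases of that exon, and its peaks were 488 bp and 382 bp wide. In Igf2r, which encodes the receptor that clears insulin-like growth factor 2, the region at chr17:12724395-12725752 held 104 coding bases and a CpG ratio of 0.0869, and its peaks were 1352 bp and 1349 bp wide.

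Ryr1, which encodes the calcium release channel of skeletal muscle, and Syne1, which encodes nesprin-1 of the nuclear envelope, each held 3 regions. Those in Ryr1 lay around exons 14, 66 and 88 of 109, with 196, 131 and 33 coding bases. The proximal peaks were 749 bp, 666 bp and 780 bp wide and the distal peaks 715 bp, 633 bp and 546 bp. Ryr1 had no peak at its own promoter, and neither had Ttn and Tal1, while Flt1 had a peak of both ends there. Of the regions in Syne1, those over exons 55 and 47 of 146 held 357 and 208 coding bases, and the third lay over an exon of a noncoding transcript.

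Exons with enhancer activity have been described for Dync1i1, Hoxa2 and Adamts5, and none of these genes held a region of the set. Of the 3 genes, 2 had an exonic base beyond 3 kb. Hoxa2 had none, so the distance rule kept it out of the set in advance. Hoxa2 and Adamts5 overlapped no peak of either list. Dync1i1 overlapped 6 merged regions, of which 4 held a peak of both ends. One of them, at chr6:6005675-6006431, held 141 coding bases at exon 15 of 17 and a peak of both ends, but it also held the annotated start, at 6006066, of a transcript with a retained intron, and so did not meet the distance rule.

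Consensus letters were searched on both strands in the central 200 bp of each region. They were TGACTCA or TGAGTCA for AP-1, AACCACA for Runx, ACAAAG for Sox, GGAATG for Tead, CCGGAAG for Ets, TGACGTCA for Creb, CAGCTG for the E-box, and the consensus of Ctcf. The 2 forms of the AP-1 letters are reverse complements of each other, and none of the other consensus letters contains them. A match is a description of the sequence and not a measured binding site.

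AP-1 letters were present in 122 of the 501 regions (24.4%, interval 20.8% to 28.3%), against 33.3% of shared intron regions (interval 31.8% to 34.8%), 29.8% of shared intergenic regions (interval 28.6% to 31.1%) and 4.50% of shared promoter regions. The share was 26.2% in coding regions without a last exon (61 of 233, interval 21.0% to 32.2%) and 14.3% in those with one (18 of 126, interval 9.23% to 21.5%), and it was 26.8% in 3′ UTR regions. Of the 50 coding regions rich in CpG 1 had AP-1 letters. Without those regions the share in coding regions with a last exon was 19.1% (17 of 89).

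For each of the other consensus letters the interval of the 501 regions in the central 200 bp included the share of intron regions. Runx letters were present in 6.99% of the 501 regions and 7.03% of intron regions, Sox letters in 15.4% and 12.9%, Tead letters in 13.2% and 14.1%, E-box letters in 15.8% and 15.45% and the Ctcf consensus in 2.99% and 3.53%. In promoter regions these shares were 2.04%, 6.86%, 6.27%, 11.6% and 0.670%. Ets letters, present in 10.6% of promoter regions, were in 1.40% of the 501 regions and 1.18% of intron regions. Creb letters were in 0.998% of the 501 regions, 0.561% of intron regions and 1.84% of promoter regions, and the first share rested on 5 regions. In 3′ UTR regions the point estimates for Runx (11.3%), Sox (19.6%) and E-box letters (19.6%) were above those of introns, and the intervals included the intron values for Runx and E-box letters. For Sox letters the interval (12.9139% to 28.6%) began just above the intron value of 12.8843%. Over whole regions, E-box letters were in 43.1% of the 501 regions (interval 38.8% to 47.5%) and 37.9% of intron regions. Ets letters were in 5.79% (interval 4.06% to 8.19%) and 3.15%, and Creb letters in 2.40% (interval 1.38% to 4.14%) and 1.23%. These intervals lay above the intron shares, but whole regions differ in width, with medians of 699 bp and 666 bp.

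**Figure D4:**
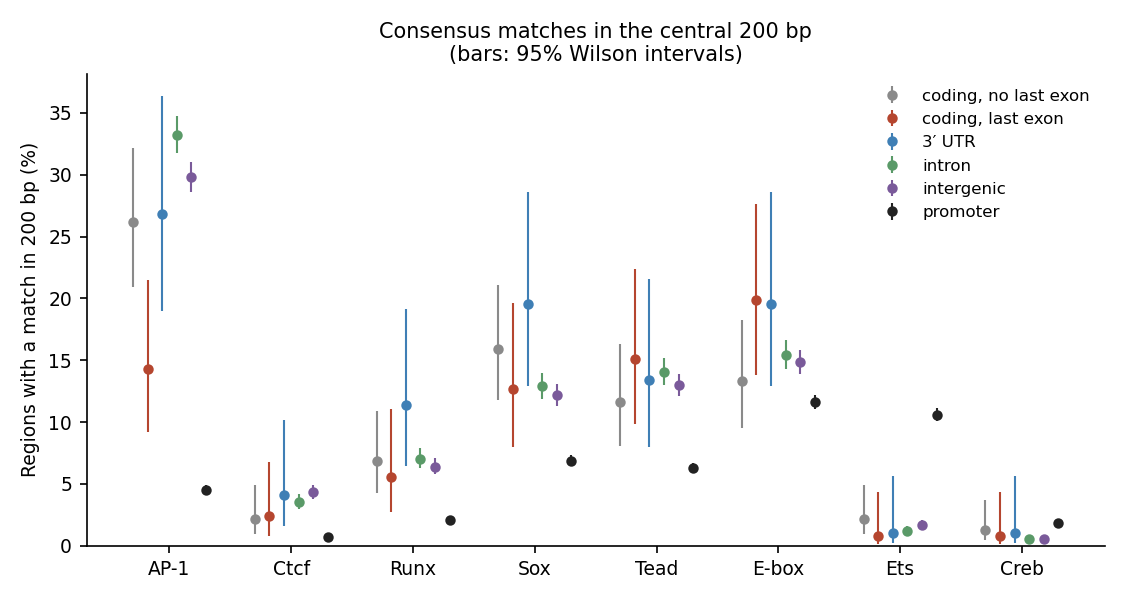
Share of regions with consensus letters in the central 200 bp (y axis, in %), with 95% Wilson intervals as bars, for 6 groups of shared regions. For AP-1 the group of coding regions with a last exon stands at 14.3%, between promoters at 4.50% and the other groups, which lie from 26.2% to 33.3%.

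Matches were also counted over the full length of the coding regions, not only the central 200 bp. These matches were not spread evenly over coding and other bases. Matches that crossed an exon border were counted as not coding. An even spread would therefore give somewhat less than the share of coding bases. With 27.7% of the bases coding, 31 of 171 AP-1 matches lay wholly in coding sequence (18.1%, interval 13.1% to 24.6%), as did 6 of 67 Runx matches (8.96%, interval 4.17% to 18.2%), 35 of 186 Sox matches (18.8%, interval 13.9% to 25.0%) and 1 of 23 Ctcf matches. For Tead it was 46 of 179 matches (25.7%, interval 19.9% to 32.6%). For the E-box it was 87 of 213 (40.8%, interval 34.5% to 47.6%), for Ets 14 of 27 and for Creb 4 of 8. Matches next to each other in 1 region are not independent, and coding and other bases differ in GC content.

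Both ends held a peak in 501 of the 785 exon regions beyond 3 kb, which is 63.8% (interval 60.4% to 67.1%), beside 73.0% of all 32388 merged regions and 61.8% of the 16673 merged regions beyond 3 kb. By class it was 65.0% for coding regions, 59.1% for 3′ UTR regions, 60.2% for intron regions and 62.8% for intergenic regions. The presence in both lists chose the set, so these shares describe it.

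The exon regions open at a single end leaned the other way from those elsewhere. In exons 126 regions were proximal only and 158 distal only, so that the proximal share of the single-end regions was 44.4% (interval 38.7% to 50.2%). In coding exons the numbers were 82 and 111 (42.5%, interval 35.7% to 49.5%) and in the 3′ UTR 33 and 34 (49.3%). In introns they were 1354 and 1124 (54.6%, interval 52.7% to 56.6%) and between genes 1812 and 1361 (57.1%, interval 55.4% to 58.8%). The intervals for coding exons and introns did not overlap, but the calls in each list depend on the depth and quality of its libraries, and their part in the difference was not tested.

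**Figure D5:**
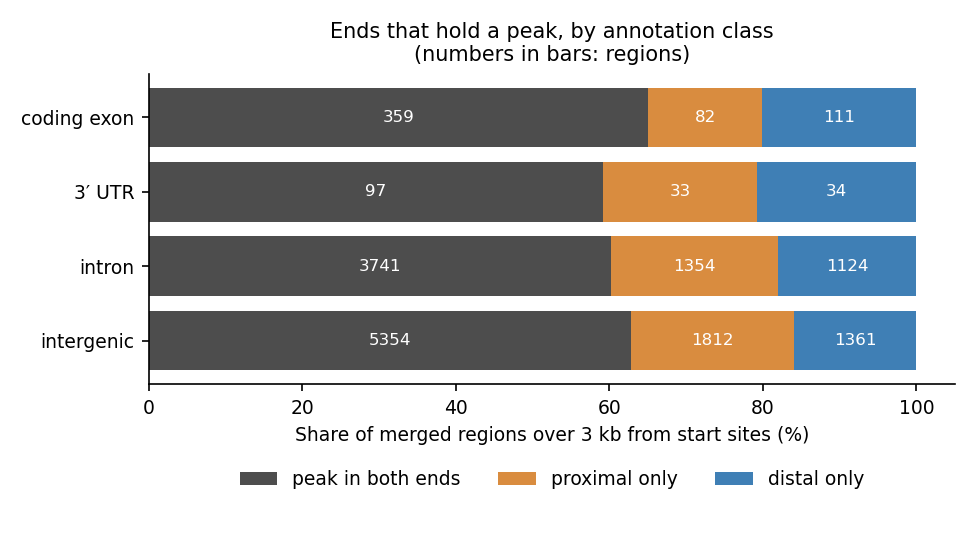
Share of merged regions more than 3 kb from start sites (x axis, in %) with a peak in both ends, in the proximal list only or in the distal list only, by annotation class, with the number of regions printed in each bar. Proximal-only regions outnumber distal-only regions in introns (1354 and 1124) and between genes (1812 and 1361), and the reverse holds in coding exons (82 and 111).

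Where both ends held a peak in an exon, their borders were close. In 498 of the 501 regions each list had a single peak, and the bases common to both made up a median of 86.7% of the merged region (quartiles 78.1% and 92.8%), against 86.3% in introns, 86.6% between genes and 90.6% at promoters. A proximal and a distal border lay a median of 35 bp apart. The proximal peak was the wider one in 308 of 498 regions (61.8%, interval 57.5% to 66.0%), beside 59.6% in introns, 60.3% between genes and 54.3% at promoters.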

How the data were processed

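Each deposited list gives the chromosome, start and end of peaks that the authors obtained by Bowtie2 (2.2.8) alignment to mm10, MACS2 (2.1.1 per the labels) peak calling and an IDR threshold of 0.05 between 2 biological replicates; the deposited values are positions in no other unit, without a signal or score. Per the labels the sequencing runs were withdrawn and replaced, and which runs the lists come from is not given in the sources used here. Peaks lay on the 19 autosomes, and none ran past a chromosome end of GRCm38.

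Overlapping peaks (at least 1 bp) were merged and compared with GENCODE mouse release 21 and the RefSeq GRCm38 sequence using Python 3.11.15, NumPy 2.4.6, SciPy 1.17.1 and pysam 0.24.0. A region with any coding base was put in the coding class, then 3′ UTR, then other exons. Counts and shares were described with 95% Wilson intervals, and no p-value was computed since each end has 1 list. The steps were tested on simulated data. The members and gene lists were chosen with earlier results of these data known. Named were the 10 regions with the most coding and the 10 with the most 3′ UTR bases, the 5 widest, those next to the distance limit, those in listed genes, and genes with 3 regions. Some of the regions that this rule names are not reported here.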

Additional observations from a re-analysis of the deposited data

How the results depend on the processing

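Start sites of protein-coding genes only, a distance limit of 5 kb or 1 kb, and a reciprocal peak overlap of 50% were tried. None moved a result beyond its limit, which was 1.5-fold for counts and covered shares and the 95% interval of the main value otherwise. The number of regions was 535, 403, 665 and 495 in that order, against 501. With the centre of the region required in an exon, 264 regions remained, with 58.7% coding, 31.8% 3′ UTR, 74.2% touching a last exon, a median width of 678.5 bp and a median GC content of 53%. With exons over at least 50% of the region the values were 204, 48.0%, 41.2%, 91.2%, 675 bp and 53.25%. With transcripts of type protein_coding or basic-tagged transcripts only, 78.4% and 78.6% were coding and 44.3% and 41.9% touched a last exon, and with the longest coding transcript 33.5% did. With only the wider peaks of each list, from its median width up, 147 regions met the rule, 75.5% of them coding, 52.5% of exon regions were open at both ends, the median width was 917 bp, the common bases 90.3%, the AP-1 share 19.7%, and the covered share 0.191% for coding, 0.114% for 3′ UTR, 0.124% for intronic and 0.119% for intergenic bases. Over whole regions GC content was 50.1% and the AP-1 share 42.9%. Without CpG-rich exon regions, chosen after seeing the data, the covered share was 0.267% for coding bases and 0.311% for those of last exons.

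No paired analysis was possible because each peak list combines the replicates of its end, and for the same reason no replicate was left out. The lists give no read depth, so a region absent from a list was not called there and is not shown to be closed.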

Other observations

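The regions were spread over all 19 autosomes, from 11 on chromosome 14 to 42 on chromosome 3. As a share of all shared regions beyond 3 kb they ranged from 2.52% on chromosome 14 and 2.76% on chromosome 12 to 6.60% on chromosome 11 and 7.08% on chromosome 7. The 45 regions over 5′ UTR or noncoding exons had AP-1 letters in 37.8% (interval 25.1% to 52.4%), and the interval included the share of intron regions. Windows with Creb letters in coding sequence were found in Dmrt3, Lhx2 and Trpv3, genes named after their values were seen. In Trpv3, which encodes a heat-activated ion channel of skin, the letters lay 9 bp from the centre of the region.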
